A study of Mus musculus with 2 samples.

Results

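The levels of 10 genes of the unfolded protein response were examined in MIN6, a line grown from a mouse insulin-secreting tumour and used to study beta cells. They encode the stress sensors of the endoplasmic reticulum and their relatives (Ern1, Eif2ak3, Atf6 and Atf6b), the transcription factor Xbp1, the membrane-bound factors Creb3, Creb3l1 and Creb3l2, and the cleaving proteases Mbtps1 and Mbtps2. They were chosen by name, with earlier results of these data known, and all 10 of the 10 listed symbols were found among the 30868 features of the expression table. There were 2 RNA-seq libraries, 1 from cells labelled high glucose and palmitate and 1 from cells labelled normal. Their titles are HGP and NGP. The labels do not say whether the normal cells also received palmitate, so which agents differ between the libraries cannot be told. The protocol text, which is the same on both records, names 0.5% BSA, glucose at 33.3 mmol/l and palmitate at 0.4 mmol/l, and it does not describe the medium of the normal cells separately. Genotype was the same cell line in both groups, and no allele or agent besides those is named. Each group had 1 library, so no difference has a replicate behind it and no test was possible.

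Proteins of the secretory pathway fold in the endoplasmic reticulum, and beta cells make large amounts of proinsulin there. When unfolded proteins accumulate, the membrane kinase and endonuclease IRE1 (encoded by Ern1) cuts Xbp1 mRNA so that it encodes an active transcription factor. The kinase PERK (encoded by Eif2ak3) phosphorylates eIF2alpha and so reduces translation, while ATF4 is made. ATF6 and its relative ATF6B, like the CREB3 family, are transcription factors tethered to the membrane. They travel in COPII vesicles to the Golgi, where site-1 protease (Mbtps1) and then site-2 protease (Mbtps2) cut them and release the part that enters the nucleus. Much of this control acts on proteins and on mRNA cutting, which a level of total mRNA per gene does not measure.

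The site at which IRE1 cuts Xbp1 mRNA is shown because the level of Xbp1 given here sums both forms of the RNA. A pair of CNGCAG matches (N any base, searched on the transcript strand) whose starts lie 26 bases apart was looked for in GENCODE M21 transcripts. It was found in 738 of 58797 protein-coding transcripts (1.26%), so it is not particular to Xbp1. In the Xbp1 transcript of 2129 bases, 1 such pair encloses bases 815 to 840. Removing these 26 bases, which are not a multiple of 3, turned a reading frame of 267 codons into one of 371 codons with the same start. Another pair in that transcript, at bases 458 to 483, did not give a longer frame. The segment also occurs in another 2 coding Xbp1 transcripts of the annotation, of 1099 and 897 bases. Without it, the frame of 108 codons in the first of these became one of 104 codons, and the frame of 214 codons in the other ran for 219 codons to the end of the transcript with no stop. The capitals mark the 26 bases between the cuts, with 20 bases on each side.
Xbp1 mRNA site: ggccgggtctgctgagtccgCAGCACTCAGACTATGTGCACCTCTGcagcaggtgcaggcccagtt
The segment is 26 of the 3248 bases over which the Xbp1 reads were counted, so the share of cut Xbp1 RNA cannot be read from these levels.

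Promoters were compared because ATF6 and XBP1 bind known elements in the promoters of chaperone genes. RefSeq promoter sequences (GRCm38.p6, 250 bases before to 50 after the start, 32851 promoters) were matched by symbol for 8 of the 10 genes, without Atf6 and Creb3l1. The endoplasmic reticulum stress element, ERSE, made of CCAAT and CCACG with 9 free bases between them and searched on both strands, was present in 0.119% of all promoters and in none of the 8. Of 10 matched promoters of a list of ATF6 target genes, 5 held it, those of Hspa5, Calr, Hsp90b1, Dnajc3 and Creld2. The related ERSE-II element, ATTGG and CCACG with 1 free base between them, was present in 0.0365% of all promoters and in those of the targets Herpud1 and Dnajb11. The element was first described in such target genes, so its presence there is a description of the list. The matches of 4 targets are shown, read in the direction of the element, with the fixed bases in capitals.
Hspa5 ERSE: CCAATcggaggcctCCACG
Hsp90b1 ERSE, base 39 of the window: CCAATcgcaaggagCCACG
Hsp90b1 ERSE, base 144 of the window, opposite strand: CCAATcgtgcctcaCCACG
Creld2 ERSE, opposite strand: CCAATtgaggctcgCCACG
Herpud1 ERSE-II: ATTGGgCCACG

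No full XBP1 and ATF6 element TGACGTGG (0.676% of all promoters) and no full CRE TGACGTCA (1.79%) was found in the 8 windows. The shorter ACGTGG, which is part of TGACGTGG, occurs in 8.31% of all promoters and was found in that of Creb3. TGACG, which is part of both, occurs in 20.8% and was found in those of Creb3l2 and Mbtps1. Both short motifs were searched on both strands and were added after the values were seen. A match is a description of the letters and not a bound site. Only exact matches were searched for, so elements that differ from a pattern in 1 letter are not counted in any promoter. The promoter of Hspa5 (chr2:34771840-34772139, plus strand) is shown with its exact ERSE match in capitals, as the example with the element. Those of Creb3 (chr4:43562408-43562707, plus strand, ACGTGG in capitals), Creb3l2 (chr6:37442099-37442398, minus strand, TGACG in capitals) and Xbp1 (chr11:5520391-5520690, plus strand, no match) are the promoters of 2 membrane-bound factors and of the most abundant gene of the 10, all in GRCm38.p6.
Hspa5: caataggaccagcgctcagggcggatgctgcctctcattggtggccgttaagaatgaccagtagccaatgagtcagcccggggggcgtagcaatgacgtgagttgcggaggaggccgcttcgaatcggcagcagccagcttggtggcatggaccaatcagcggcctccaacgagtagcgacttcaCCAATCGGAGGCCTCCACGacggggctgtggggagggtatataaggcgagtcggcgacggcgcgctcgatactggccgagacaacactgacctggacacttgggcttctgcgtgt
Creb3: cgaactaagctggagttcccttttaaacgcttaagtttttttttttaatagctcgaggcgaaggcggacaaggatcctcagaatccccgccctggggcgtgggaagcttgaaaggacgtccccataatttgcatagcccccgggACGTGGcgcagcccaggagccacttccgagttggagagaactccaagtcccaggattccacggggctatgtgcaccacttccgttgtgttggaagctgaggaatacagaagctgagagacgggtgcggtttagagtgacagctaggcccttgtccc
Creb3l2: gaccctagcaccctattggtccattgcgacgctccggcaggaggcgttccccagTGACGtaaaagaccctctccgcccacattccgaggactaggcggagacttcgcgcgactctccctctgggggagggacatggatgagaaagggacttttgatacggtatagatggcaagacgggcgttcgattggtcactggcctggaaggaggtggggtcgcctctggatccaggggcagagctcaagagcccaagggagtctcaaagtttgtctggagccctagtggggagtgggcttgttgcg
Xbp1: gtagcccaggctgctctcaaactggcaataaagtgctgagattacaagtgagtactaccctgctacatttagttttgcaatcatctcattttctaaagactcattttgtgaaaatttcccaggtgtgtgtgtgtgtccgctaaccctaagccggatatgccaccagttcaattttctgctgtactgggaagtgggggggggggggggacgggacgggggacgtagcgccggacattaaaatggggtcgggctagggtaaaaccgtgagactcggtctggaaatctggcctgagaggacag

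The libraries held 43727919 reads assigned to features in the treated and 44149406 in the normal one, and the 10 genes together took 0.0761% (0.0753 to 0.0769) and 0.0663% (0.0655 to 0.0670) of them (exact binomial 95% intervals). Levels are in RPKM, which divides reads by the deposited gene length and by the library total. Comparisons of levels between genes depend on that length. For Xbp1 it is 3248 bases, while the Xbp1 transcripts described above have 2129, 1099 and 897 bases. The deposited length cancels in the ratio of a gene between the libraries. Intervals in brackets after a level are exact 95% Poisson intervals, and those after a ratio are exact 95% intervals of the treated over the normal RPKM. Both cover counting error only. Of features with 1 to 20 reads, 76.6% in the treated and 75.9% in the normal library had an even count. If mates of a pair were counted separately, even counts would prevail and the intervals would be too narrow. The sources do not say how pairs were counted. Markers of the labelled cell type were present, with a summed level of 12 beta cell genes of 10503 RPKM in the treated and 11141 RPKM in the normal library. Ins1 and Ins2, the insulin genes, had ratios of 0.527 and 0.606, and the beta cell factors Pdx1 and Mafa 0.771 and 0.712. Of the 12 genes, 9 had a counting interval below 1, and those of Iapp at 1.01 and Neurod1 at 0.983 included 1. The prohormone convertase gene Pcsk1 at 1.08 (1.05 to 1.11) had one above 1. Of all features with a mean of at least 1 RPKM, 22.3% had an interval below 1 and 22.0% one above 1. Chga, with 559722 treated and 576693 normal reads, was among the 9 at a ratio of 0.980. Most markers of cells from outside the islet were near 0. The 3 fibroblast and stellate genes in the table summed to 0.320 RPKM in the treated and 0.308 in the normal library, 4 endothelial genes to 0.161 and 0.154, and 3 acinar and ductal genes to 0.140 and 0.118. Kdr and Krt19 had no reads in either library. The 4 immune genes summed to 3.18 RPKM in the treated and 1.67 in the normal library. Of these sums Cd68 made 2.02 and 0.901, and Lyz2 made 1.08 and 0.688, a ratio of 1.56 (1.03 to 2.39). Ptprc was at 0.0787 and 0.0705, and Adgre1 had no treated and 2 normal reads. Of hormone genes of other islet cells, the glucagon gene Gcg had 4.68 RPKM in the treated and 7.31 in the normal library, and the somatostatin gene Sst 9.67 and 7.45 RPKM.

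Of the 10 genes, 9 reached a mean of 1 RPKM, the level from which features were compared, and Creb3l1 did not. The counting interval of the ratio lay above 1 for 7 of the 9 genes, below 1 for Mbtps1 and around 1 for Atf6b. Among all 13947 features compared, 22.0% had an interval above 1 and 22.3% one below 1. Because the 9 genes had 1264 reads or more over both libraries, the shares were also taken over the 9201 features with at least 1000 reads, where they were 26.2% and 27.1%. A ratio of at least 1.2 was found for 5 of the 9 genes, against 10.9% of all features, or 5.83% of those with at least 1000 reads. None was lower by as much, against 11.0% of all features and 6.65% of the deeper ones. Of the 5 genes, Ern1, Atf6 and Mbtps2 at 1.22 and Xbp1 at 1.24 lay just past 1.2, with counting intervals that reach below it. Only the interval of Creb3l2 lay wholly above 1.2, so the count depends on where the threshold is set. A ratio of at least 1.5 was found for Creb3l2 alone of the 9, against 2.67% of all features, and none reached 2, against 0.961%. The median log2 ratio of the 9 genes on the scale of RPKM plus 0.5 was 0.22, and that of all features was 0.0028.

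**Figure D1:**
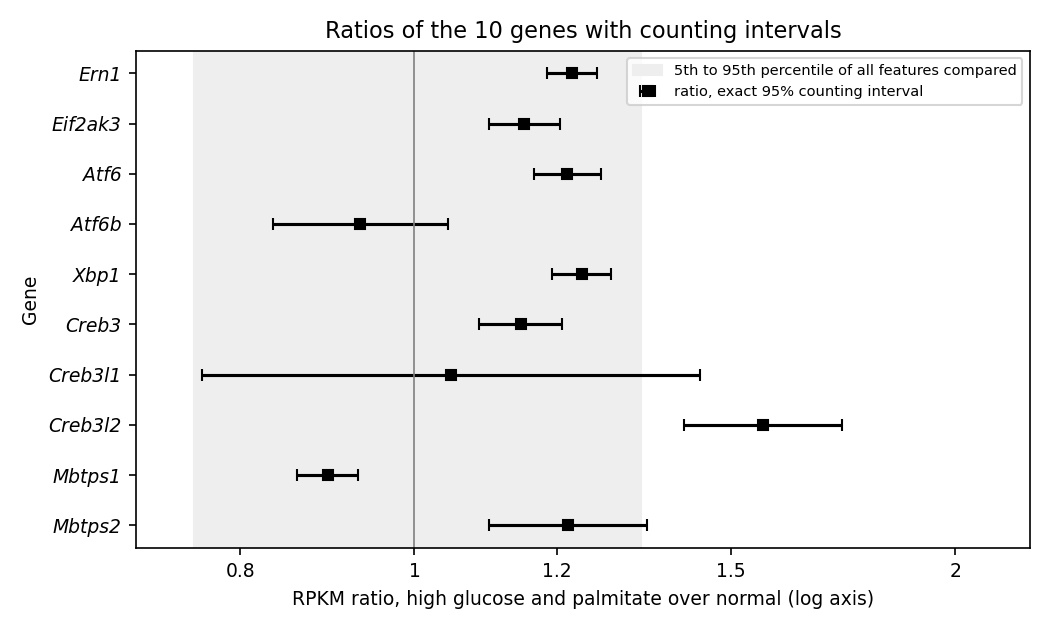
Ratio of RPKM, high glucose and palmitate over normal, for each of the 10 genes on a log axis. Squares are the ratios of 1 library to 1 library, bars the exact 95% counting intervals, and the grey band the 5th to 95th percentile of all features, 0.754 to 1.34. Creb3l2 at 1.56 lies beyond the band, 6 other ratios lie within it with intervals above 1, and Mbtps1 at 0.895 has its interval below 1.

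Ern1 encodes IRE1, the sensor that cuts Xbp1 mRNA. The gene spans bases 106285476 to 106378678 of chromosome 11, minus strand (GRCm39, as all gene coordinates of the expression table), with 22 exon blocks. Its level was 22.6 RPKM (22.2 to 23.1) in the treated library, from 8093 reads, and 18.5 RPKM (18.1 to 19.0) in the normal library, from 6677 reads. The ratio was 1.22 (1.18 to 1.26), and 9.23% of all features had a ratio as high or higher. Ern1 was the most abundant of the 4 sensor genes in both libraries.

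Eif2ak3 encodes PERK, the sensor kinase that phosphorylates eIF2alpha, and spans bases 70821499 to 70882229 of chromosome 6 (plus strand). It stood at 15.3 RPKM (14.9 to 15.8) in the treated and 13.3 RPKM (12.9 to 13.8) in the normal library, from 4044 and 3547 reads. The ratio of 1.15 (1.10 to 1.205) was the smallest of the 3 sensor genes with an interval above 1. Its exons overlap the predicted gene Gm43292 on the opposite strand, which had 395 reads in the treated and 314 in the normal library. The use of strand in counting is not given in the sources.

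Atf6 encodes a membrane-tethered sensor whose cut form activates chaperone genes, and spans bases 170532243 to 170695340 of chromosome 1 (minus strand). It had 11.6 RPKM (11.3 to 12.0) in the treated and 9.55 RPKM (9.25 to 9.86) in the normal library, from 4690 and 3893 reads. The ratio was 1.22 (1.17 to 1.27). Its paralog Atf6b, on bases 34866120 to 34874048 of chromosome 17 (plus strand), was nearer to the same level in both libraries. It had 5.03 RPKM (4.64 to 5.45) in the treated and 5.40 RPKM (4.99 to 5.83) in the normal library, giving a ratio of 0.933 (0.834 to 1.04) from 607 and 657 reads. The intervals of the 2 levels of Atf6b overlap, while those of Atf6 do not. Per deposited length, the level of Atf6 was 2.31 times that of Atf6b in the treated and 1.77 times in the normal library. The ratio of Atf6 was thus 1.30 times (1.16 to 1.47, exact conditional interval of the odds ratio of reads) that of its paralog.

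Xbp1, the target of IRE1 and a transcription factor for secretory pathway genes, spans bases 5470659 to 5475893 of chromosome 11 (plus strand). Its level was the highest of the 10 genes, at 43.3 RPKM (42.2 to 44.4) in the treated and 35.0 RPKM (34.0 to 35.9) in the normal library, from 6150 and 5012 reads. The ratio was 1.24 (1.19 to 1.29), and 8.35% of all features had a ratio as high or higher. Xbp1 alone made 30.4% of the summed RPKM of the 10 genes in the treated and 28.5% in the normal library. Its ratio was 1.01 times (0.963 to 1.06) that of Ern1, and the ratio of Atf6 was 0.994 times (0.942 to 1.05) that of Ern1. Both intervals include 1, so differences of up to about their bounds between these ratios were not detectable at this depth.

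**Figure D2:**
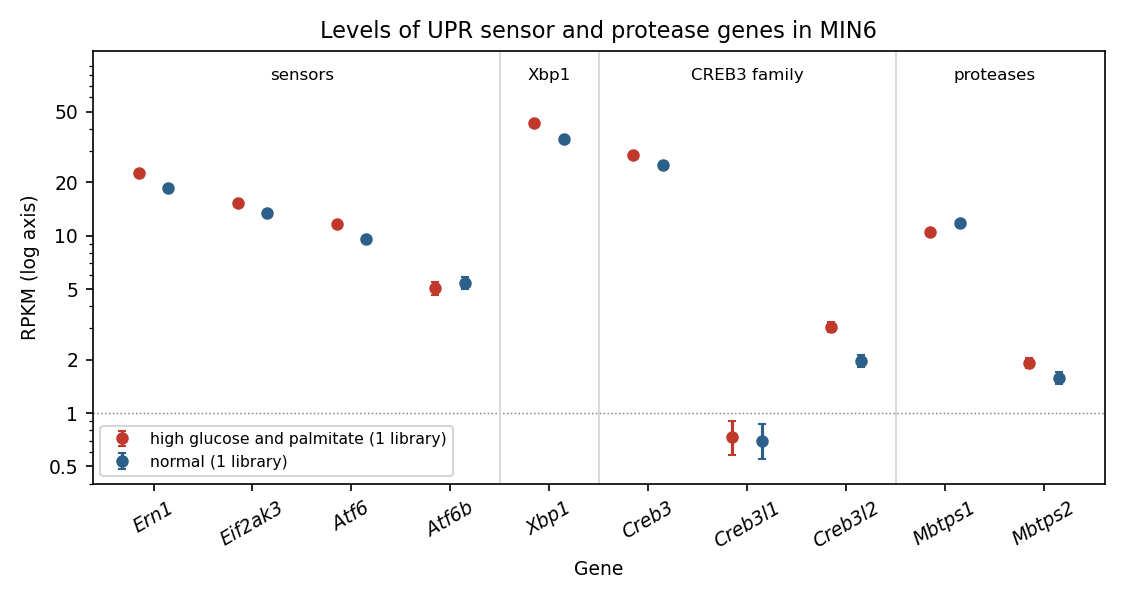
RPKM on a log axis of the 10 genes, grouped by role, in the library labelled high glucose and palmitate (red, left of each pair) and the library labelled normal (blue, right). Bars are exact 95% Poisson intervals, and the dotted line is the level of 1 RPKM. Xbp1 is highest at 43.3 and 35.0 RPKM and Creb3l1 lowest at 0.729 and 0.696 RPKM. The red point is lower than the blue one for Atf6b and Mbtps1.

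The CREB3 family showed both the largest ratio and the lowest level among the 10 genes. Creb3l2 encodes a membrane-bound factor also called BBF2H7, known in mouse cartilage for its role in secretion of matrix proteins. It spans bases 37304190 to 37419081 of chromosome 6 (minus strand). It had 3.07 RPKM (2.88 to 3.27) in the treated and 1.96 RPKM (1.81 to 2.12) in the normal library, from 977 and 631 reads. The ratio was 1.56 (1.41 to 1.73), and 2.18% of all features had a ratio as high or higher. On the scale of RPKM plus 0.5 the log2 ratio was 0.53.

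Creb3, the founding member of the family, spans bases 43562332 to 43567060 of chromosome 4 (plus strand) and was second in level to Xbp1. It had 28.5 RPKM (27.5 to 29.5) in the treated and 24.9 RPKM (23.9 to 25.8) in the normal library, giving a ratio of 1.15 (1.09 to 1.21) from 2956 and 2605 reads. Its exons overlap those of Gba2 and Tln1 on the opposite strand. Tln1 had 6863 reads in the treated and 6067 in the normal library, giving a ratio of 1.14, and Gba2 had 709 and 632 reads, a ratio of 1.13. These ratios are close to that of Creb3, and which gene the reads in the overlap came from was not tested. Creb3l1, also called OASIS and known in mouse bone for collagen production, spans bases 91812673 to 91854847 of chromosome 2 (minus strand). It had 0.729 RPKM (0.581 to 0.904) in the treated and 0.696 RPKM (0.552 to 0.866) in the normal library, from 83 and 80 reads. Its ratio of 1.05 had an interval of 0.761 to 1.44, so a difference of the size seen for Atf6 or Xbp1 was not detectable at this depth. The ratio of Creb3 was 0.733 times (0.653 to 0.822) that of Creb3l2, and that of Creb3l1 was 0.670 times (0.479 to 0.939).

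The proteases differed in direction. Mbtps1, the gene of the Golgi serine protease that makes the first cut, spans bases 120234895 to 120285474 of chromosome 8 (minus strand). It had 10.5 RPKM (10.2 to 10.8) in the treated and 11.7 RPKM (11.4 to 12.0) in the normal library, from 4827 and 5448 reads, a ratio of 0.895 (0.860 to 0.930). It was the only gene of the 10 whose counting interval lay below 1. Mbtps2, the gene of the intramembrane metalloprotease that makes the second cut, spans bases 156318367 to 156381711 of chromosome X (minus strand). It had 1.92 RPKM (1.79 to 2.05) in the treated and 1.58 RPKM (1.46 to 1.70) in the normal library, from 848 and 703 reads, a ratio of 1.22 (1.10 to 1.35). The gene Yy2 overlaps its exons on the same strand and had 103 reads in the treated and 124 in the normal library. Per length, Mbtps1 stood at 5.46 times the level of Mbtps2 in the treated and 7.43 times in the normal library, so the ratio of Mbtps1 was 0.735 times (0.659 to 0.819) that of Mbtps2.

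The order of levels among the 10 genes was the same in both libraries except for 1 neighbouring pair. From high to low it ran Xbp1, Creb3, Ern1, Eif2ak3, Atf6, Mbtps1, Atf6b, Creb3l2, Mbtps2 and Creb3l1 in the treated library, and Mbtps1 stood above Atf6 in the normal library. Atf6 had 1.11 times the level of Mbtps1 in the treated and 0.816 times in the normal library, and the ratio of Atf6 was 1.36 times (1.28 to 1.44) that of Mbtps1. The counting intervals of neighbouring levels did not overlap in either library, but the spread between cultures is unknown. The order of genes within a library also depends on the deposited lengths. Of the 8 pairs of genes whose ratios were compared, 6 had an interval that excludes 1, the one nearest 1 being Ern1 over Eif2ak3 at 1.06 (1.01 to 1.12). With reads halved, as if each pair had been counted at both mates, the interval of that pair (0.982 to 1.15) and that of Creb3l1 over Creb3l2 (0.420 to 1.10) included 1. In bulk RNA, fewer cells with a transcript and less of it per cell cannot be told apart.

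**Figure D3:**
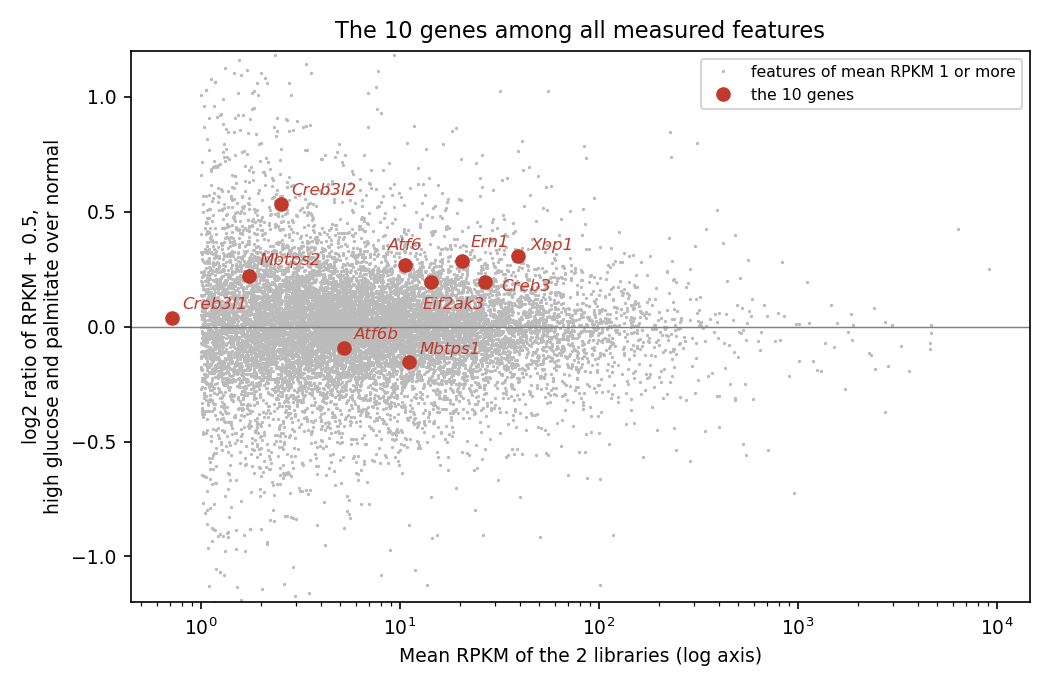
Log2 ratio of RPKM plus 0.5, high glucose and palmitate over normal, against the mean RPKM of the 2 libraries on a log axis. Grey points are the features of mean RPKM 1 or more, of which 80 lie beyond the vertical range, and red points are the 10 genes. Creb3l2 is highest at 0.53, Xbp1 stands at 0.31, and Mbtps1 is lowest at -0.15.

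Genes that act beside these 10 were described by lists, none of which holds any of the 10, while 9 genes stand in more than 1 list. Close relatives were low or little different. Ern2, the IRE1 gene of gut epithelium, had 0 reads in the treated and 4 in the normal library, Creb3l3 had 28 and 12, and Creb3l4 had 30 and 14, all below 1 RPKM. From these few reads, Creb3l3 had a ratio of 2.36 (1.16 to 5.09) and Creb3l4 one of 2.16 (1.11 to 4.42). The other eIF2alpha kinase genes Eif2ak1 and Eif2ak2 had ratios of 1.10 (1.04 to 1.16) and 1.01 (0.972 to 1.05). The median log2 ratio of the 3 measured members of that list was 0.02.

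Site-1 and site-2 protease also cut the sterol regulatory factors, and 7 genes of that side of the pathway were measured. Their median log2 ratio was 0.10, with 4 intervals above 1, 1 below 1 and no gene past 1.2-fold. Among all features, 22.0% had an interval above 1, 22.3% one below 1 and 10.9% were past 1.2-fold higher. Srebf1, the factor of lipid synthesis, had 6.58 RPKM in the treated and 5.68 RPKM in the normal library, giving a ratio of 1.16 (1.08 to 1.25). The retention factor genes Insig1 and Insig2 stood at 1.15 and 1.10, while the cholesterol factor gene Srebf2 stood at 0.997 (0.941 to 1.06) and Gnptab, another substrate of site-1 protease, at 1.08. Spring1, which encodes a protein required for site-1 protease maturation, had a ratio of 0.869 (0.796 to 0.947) and was named after its value was seen.

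Of 20 measured regulators of the sensors, 14 had an interval above 1 and 1 below 1, 7 were past 1.2-fold higher, and the median log2 ratio was 0.19. The shares of all features so called were 22.0%, 22.3% and 10.9%. Over features with at least 1000 reads they were 26.2%, 27.1% and 5.83%. Hspa5, which encodes BiP, the chaperone that holds the sensors inactive, had 293.1 RPKM in the treated and 162.8 RPKM in the normal library. Per deposited length, the level of Hspa5 was 12.9 times that of Ern1 in the treated and 8.80 times in the normal library. It was 19.1 and 12.2 times that of Eif2ak3, and 25.2 and 17.0 times that of Atf6. The ratio of Hspa5 was 1.47 times (1.42 to 1.52) that of Ern1, 1.56 times (1.49 to 1.64) that of Eif2ak3 and 1.48 times (1.41 to 1.55) that of Atf6, pairs chosen after the values were seen. Pdia5, a disulfide isomerase gene linked to ATF6 activation in human cells, had 11.0 RPKM in the treated and 6.54 RPKM in the normal library, giving a ratio of 1.69 (1.54 to 1.84). Ppp1r15a, whose product recruits a phosphatase to eIF2alpha, had a ratio of 1.67 (1.62 to 1.71), and its exons overlap Tulp2 on the opposite strand. Rtcb, the ligase gene that joins cut Xbp1 RNA, had 59.6 RPKM in the treated and 63.2 RPKM in the normal library, giving a ratio of 0.943 (0.912 to 0.975), and Zbtb8os, the gene of its cofactor archease, stood at 0.976 (0.922 to 1.03). Rtcb was the 1 regulator with an interval below 1, and its exons overlap Ascl4 on the opposite strand.

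ATF6 and XBP1 targets had higher medians than the 9 measured of the 10 genes, whose median log2 ratio was 0.22. The size of this gap depended on the processing. With a pseudocount of 0.1 the medians were 0.27 for the 9 genes, 0.29 for ATF6 targets and 0.34 for XBP1 targets. Without features overlapping the opposite strand they were 0.27, 0.29 and 0.28, in the same order. With a pseudocount of 1 they were 0.19, 0.29 and 0.27, and at a mean of at least 5 RPKM 0.20, 0.29 and 0.35. All 12 measured ATF6 targets had a log2 ratio above 0, as did 50.7% of all features, and their median was 0.29. Of these targets, 11 had an interval above 1 and 8 were past 1.2-fold, against 22.0% and 10.9% of all features. Beside Hspa5 at 1.80, the highest were Creld2 at 1.53 and Hyou1 at 1.52, both genes of chaperone function, and the lowest were Sdf2l1 at 1.07 (0.970 to 1.19) and Dnajb11 at 1.16 (1.13 to 1.19). Of 18 measured XBP1 targets, 15 had an interval above 1, 1 had one below 1 and 11 were past 1.2-fold, with a median of 0.30. Those shares over all features were 22.0%, 22.3% and 10.9%. Sec24d, also a COPII coat gene, had the highest ratio of the XBP1 targets at 2.10 (1.87 to 2.37), at a mean of 2.32 RPKM. The highest at a mean of at least 5 RPKM were Ostc, Pdia6 and Serp1. Ostc, an oligosaccharyltransferase subunit gene, had a ratio of 1.47 (1.36 to 1.59), Pdia6 1.43 and the translocon-associated gene Serp1 1.39. Edem1, which acts in degradation of misfolded glycoproteins, stood at 0.925 (0.881 to 0.971), and the translocon gene Ssr1 at 1.05.

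Of 14 measured genes of the PERK and ATF4 branch, 9 had an interval above 1, 1 below 1 and 5 were past 1.2-fold, with a median of 0.19. For all features the shares were 22.0%, 22.3% and 10.9%. The stress factor gene Atf3 had 32.5 RPKM in the treated and 19.2 RPKM in the normal library, and Chac1, a glutathione-degrading enzyme gene, 39.5 and 29.9 RPKM. Ddit3, the gene of CHOP, had 160.6 RPKM in the treated and 187.4 RPKM in the normal library, giving a ratio of 0.857, with opposite-strand overlap with Gm4189 and Mars1, and the oxidase gene Ero1a stood at 0.983 (0.950 to 1.02). Of RNAs known to be cut by IRE1 besides Xbp1, 3 were measured and the counting interval included 1 for all 3. That was so for 7774 of the 13947 features compared. Bloc1s1, the best known of them, had 13.7 RPKM in the treated and 12.5 RPKM in the normal library, giving a ratio of 1.09 (0.982 to 1.21), and Ergic3 stood at 0.983 (0.921 to 1.05). Col6a1 and Pdgfrb were below 1 RPKM in both libraries.

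The COPII coat, which carries ATF6 and the CREB3 family out of the endoplasmic reticulum, had 12 measured genes, of which 11 had an interval above 1 and Sec24b had one below 1. The median log2 ratio was 0.23 and 4 genes were past 1.2-fold. Over all features, 22.0% had an interval above 1, 22.3% one below 1 and 10.9% a ratio of at least 1.2. Sar1b, the GTPase gene, had 21.6 RPKM in the treated and 17.7 RPKM in the normal library, giving a ratio of 1.23 (1.12 to 1.33). Sec23b and Preb stood at 1.19 and 1.18, Sec13 at 1.11 and Sec24b at 0.917 (0.867 to 0.971), while Sec31b was below 1 RPKM. Sec23a, a known target of CREB3L2 in mouse cartilage, had 2.49 RPKM in the treated and 1.68 RPKM in the normal library, giving a ratio of 1.48 (1.29 to 1.70). Sec24d had 3.15 RPKM in the treated and 1.497 RPKM in the normal library, giving a ratio of 2.10 (1.87 to 2.37). Sec24d had the highest ratio of the list, and both genes were named after their values were seen. Exons of Sec23a overlap Gm17529 on the opposite strand.

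**Figure D4:**
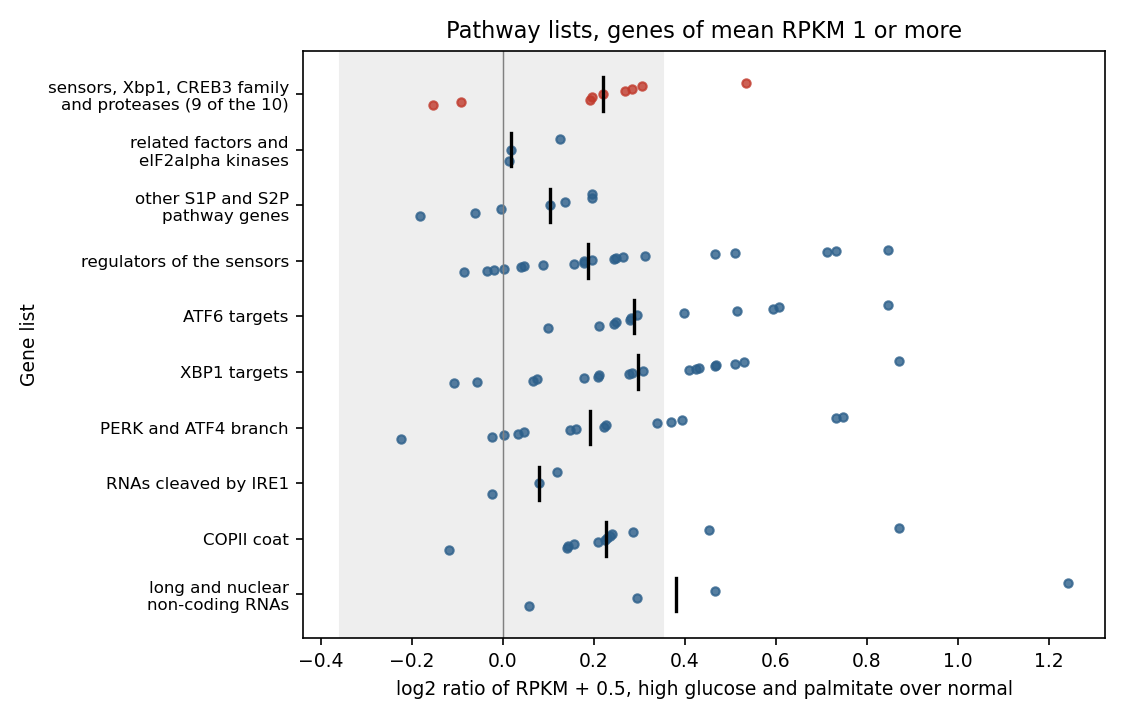
Log2 ratio of RPKM plus 0.5, high glucose and palmitate over normal, for the genes of mean RPKM 1 or more in each list, with 1 point per gene, black bars at the list medians and a grey band from the 5th to the 95th percentile of all features (-0.36 to 0.35). The top row shows 9 of the 10 genes with a median of 0.22. The medians of the ATF6 and XBP1 targets are 0.29 and 0.30. Genes in more than 1 list appear in each.

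Long and nuclear non-coding RNAs have a share that can change with RNA quality or RNA selection. The 4 measured of the 8 listed were higher in the treated library, as were most of these lists. All 4 measured members had an interval above 1, against 22.0% of all features, and the median log2 ratio was 0.38. That median was 0.29 at a mean of at least 5 RPKM, 0.10 with no filter on low values and 0.85 without features that overlap the opposite strand. Malat1 had 318.1 RPKM in the treated and 305.6 RPKM in the normal library, giving a ratio of 1.04, Neat1 stood at 1.23, Snhg1 at 1.40 and Rn7sk at 3.20 from 38 and 12 reads. Exons of Snhg1 overlap other features on the same strand, among them Snord22. Meg3, Kcnq1ot1, Rmrp and Rpph1 were below 1 RPKM. Kcnq1ot1 had 1148 reads in the treated and 936 in the normal library, Meg3 12 and 14, Rpph1 0 and 6, and Rmrp none. The summed level of the list was 354.1 RPKM in the treated and 332.4 RPKM in the normal library. The part of this difference in the results for the 10 genes was not tested, nor was that of the immune genes given above or of the beta cell genes, whose median log2 ratio was -0.35.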

How the data were processed

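Trizol extracts of 1 µg RNA each went into a stranded mRNA library kit, per the labels' protocols. The authors deposited RPKM values, 1 column per library, with exon coordinates and lengths. Per the submitters' processing notes, Trimmomatic 0.36, edgeR 3.12.1 and build GRCm39 were used. The aligner, the counter and its strand setting are not given in the sources. Columns were matched to samples by title.

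RPKM times length, divided by a step fitted to each library's values, gave whole reads for 100% of values within 0.01 read, and library totals are their sums. Reads served for intervals only (Clopper-Pearson for ratios, Poisson for levels, conditional odds ratio for pairs, with SciPy 1.17.1). The ratio intervals were tried on simulated independent reads. Such reads hold neither paired mates nor a spread between cultures, so the trial cannot show how the intervals cover in these data. Reads carry no molecular identifiers, so intervals cover counting error only. Log2 ratios used a pseudocount of 0.5, which understates differences of low genes, and a mean of at least 1 RPKM. Exon overlaps came from bedtools 2.31.1.

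The genes and lists were chosen with earlier results of these data known. For each list, the 3 highest and 2 lowest ratios at a mean of at least 5 RPKM were named, and of the beta cell markers Ins1, Ins2, Pdx1 and Mafa. Exceptions such as Pcsk1, Iapp, Neurod1 and Chga were named after their values were seen. Alternatives were other scalings, pseudocounts and filters, halved reads, and leaving out overlapping or short features.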

Additional observations from a re-analysis of the deposited data

How the results depend on the processing

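No replicate exists, so no left-out library could be tried. No paired analysis was possible because each group has 1 library. Median-of-ratios scaling multiplied the treated library by 0.990 and scaling without the 10 most abundant features by 1.004, and equal summed reads changed nothing, as RPKM is already scaled by those reads. Under these scalings no ratio of the 10 genes left its counting interval. With reads halved, as if both mates had been counted, 7 intervals lay above 1 and 1 below, as did 2100 and 2169 of the 13947 features, whereas the pair ratios of Creb3l1 over Creb3l2 at 0.680 (0.420 to 1.10) and of Ern1 over Eif2ak3 at 1.06 (0.982 to 1.15) then included 1. With a pseudocount of 1, 3 of the 9 measured genes were past 1.2-fold higher and 0 past 1.5-fold. The main counts, 5 and 1 for these genes, used the plain ratio here and over all features, so the measure differs too. Without features overlapping the opposite strand, which leaves fewer genes, 4 regulators and 7 XBP1 targets were past 1.2-fold, and 1959 features had an interval below 1. The median log2 ratio of the non-coding RNAs was 0.29 at a mean of at least 5 RPKM, 0.10 with no filter and 0.85 without overlapping features. Over all features, counts depended on low values. With a mean of at least 5 RPKM, 481 features were higher and 620 lower at 1.2-fold, 77 and 64 at 1.5-fold and 14 and 9 at 2-fold, and 1963 intervals lay above 1. With no filter these counts were 7483 and 6628, 5344 and 4399, and 4297 and 3211. With a pseudocount of 1, 984 were higher at 1.2-fold, 175 higher and 136 lower at 1.5-fold, and 46 and 33 at 2-fold. Without features under 300 bases, 229 and 184 were past 1.5-fold and 55 and 27 past 2-fold. Why the counts moved was not tested. At 163 reads over both libraries, the interval of Creb3l1 reached from 0.761 to 1.44.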
